A study of Mus musculus with 278 samples.

Results

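Neurog3, Sox3, Lin28a and Upp1 are 4 genes linked to progenitor spermatogonia, the cells between the spermatogonial stem cell and the differentiating spermatogonium. They were chosen by name, with earlier results of these data known, as 4 of the 23354 genes of the deposited expression matrix. Their ranks and directions below are thus not an independent test. The 4 genes were followed across quartiles of reporter brightness, cell preparations and single cells. All 4 passed the filter on low values (28 or more cells, which is 10%, with an FPKM of 1 or above), which left 10452 genes. Neurog3 passed it with exactly 28 cells, so it lies at the edge of what was tested.

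Each of the 278 samples is 1 spermatogonium from the testis of a mouse at postnatal day 6. The animals were untreated, and all cells were sorted as positive for ID4-EGFP, a fluorescent reporter of the helix-loop-helix inhibitor gene Id4, so no group lacks the reporter. Testes of at least 2 pups were pooled for a cell suspension, single cells were captured and imaged on a Fluidigm C1 chip, and full-length cDNA was sequenced. The cells were ranked by EGFP brightness into Q1 (bright, 74 cells), Q2 (70 cells), Q3 (74 cells) and Q4 (dim, 60 cells), and came from 5 preparations of 26, 62, 37, 75 and 78 cells. Age, genotype and sort were the same for all 4 quartiles, which differ in brightness alone as far as the labels say. Reporter brightness measures EGFP protein, which can outlast the Id4 transcript, and the Id4 transcript reached an FPKM of 1 in 59.5% of the bright Q1 cells against 26.7% of the dim Q4 cells. The labels name neither the strain nor how the reporter was built.

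NEUROG3 is a basic helix-loop-helix (bHLH) transcription factor that binds DNA with an E protein partner, and ID proteins such as ID4 hold E proteins in pairs that cannot bind. In the testis, Neurog3 marks undifferentiated spermatogonia on their way to differentiation. SOX3 is a transcription factor of the SOXB1 group, with an HMG box that binds DNA. It is encoded on the X chromosome, and its loss impairs spermatogenesis in mice. LIN28A is an RNA-binding protein that blocks maturation of let-7 microRNAs and is found in undifferentiated spermatogonia. UPP1 is uridine phosphorylase, the enzyme that splits uridine into uracil and ribose 1-phosphate.

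In GRCm38, Neurog3 lies on chromosome 10 (62133090 to 62134763, plus strand), Sox3 on chromosome X (60891366 to 60893430, minus strand), Lin28a on chromosome 4 (134003330 to 134018841, minus strand) and Upp1 on chromosome 11 (9118103 to 9136170, plus strand). Exons of Fam241b overlap those of Neurog3, and exons of Gm13061 overlap those of Lin28a, each on the opposite strand. The counting is not stated to use strand, so reads of those partners cannot be told apart from the member's own. Sox3 has 1 exon of 2065 bases and 1 annotated transcript. Upp1 and Sox3 overlap no exon of another gene.

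The start regions are shown because NEUROG3 and the reporter gene's product ID4 act through the E-box, the DNA motif CANNTG that bHLH pairs bind. RefSeq promoters of build GRCm38 were matched for 3 of the 4 genes, Neurog3, Lin28a and Upp1. The 250 bases before each start are printed 5′ to 3′ on the gene's own strand, with each E-box in capitals. CANNTG reads the same on both strands. The windows are chr10:62132840-62133089 (plus strand), chr4:134018817-134019066 (minus strand) and chr11:9117853-9118102 (plus strand, 1 of 3 RefSeq starts of Upp1).
Neurog3: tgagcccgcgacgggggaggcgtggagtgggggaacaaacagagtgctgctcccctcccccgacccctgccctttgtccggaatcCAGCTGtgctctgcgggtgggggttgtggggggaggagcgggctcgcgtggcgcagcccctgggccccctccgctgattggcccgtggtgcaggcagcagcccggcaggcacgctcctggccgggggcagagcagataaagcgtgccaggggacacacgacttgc
Lin28a: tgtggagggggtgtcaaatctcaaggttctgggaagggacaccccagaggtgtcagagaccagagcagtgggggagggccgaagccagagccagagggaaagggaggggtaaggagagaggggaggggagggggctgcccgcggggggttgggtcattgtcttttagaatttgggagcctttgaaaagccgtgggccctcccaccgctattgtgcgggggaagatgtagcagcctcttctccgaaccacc
Upp1: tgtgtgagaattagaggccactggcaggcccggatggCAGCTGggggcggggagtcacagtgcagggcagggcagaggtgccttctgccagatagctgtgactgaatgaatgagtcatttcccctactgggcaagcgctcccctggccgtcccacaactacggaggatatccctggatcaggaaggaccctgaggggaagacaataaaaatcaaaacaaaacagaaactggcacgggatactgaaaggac
The printed Neurog3 and Upp1 windows each hold 1 E-box, with the letters CAGCTG in both, and the Lin28a window holds 0. Of the Upp1 starts not printed, the window at chr11:9117758-9118007 holds 1 E-box, CAGCTG. The window at chr11:9118257-9118506 holds 2, CATCTG and CAGCTG, and 31.8% of promoters hold at least 2. Of 32851 promoters cut to the same length, 66.2% hold at least 1 CANNTG and 13% hold CAGCTG. A match is a string of letters, not a measured binding site.

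LIN28A and let-7 are linked in both directions, since let-7 can bind the Lin28a transcript, and the sequences on both sides are shown for that reason. The 8 mature mouse let-7 5p forms of RefSeq, from let-7a to let-7i, share 1 seed (bases 2 to 8, in capitals), as in let-7a.
mmu-let-7a-5p: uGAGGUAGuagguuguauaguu
The reverse complement of that seed, CTACCTC in DNA letters, occurs 2 times in the 2775 bases of the longest annotated 3′ UTR of Lin28a (GENCODE M21). The 26-base windows around them lie at chr4:134005186-134005211 and chr4:134004548-134004573, minus strand, and are printed 5′ to 3′ with the match in capitals.
Lin28a first match: gcacagcctgttgaaCTACCTCattt
Lin28a second match: gagatcgccacaaacCTACCTCactg
Among the 2625 mouse genes whose longest 3′ UTR is of like length (a ratio of shorter to longer of at least 0.8), 14.7% hold at least 1 match and 2.02% hold at least 2. The 3′ UTRs of Neurog3, Sox3 and Upp1, which are shorter (656, 712 and 70 bases), hold 0. Of the 3′ UTRs of like length to each, only 4.60%, 5.12% and 0.853% hold at least 1 match, so a count of 0 is the usual one. MicroRNAs were not measured in these cells.

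The values are FPKM, fragments scaled by transcript length and by the mapped fragments of the cell, so they can be compared between genes. A cell is called detected for a gene at an FPKM of at least 1. Depth is not stated, and an estimate made from the spacing of low values gave a median of 623922 fragments per cell (range 205006 to 1232990). Cells had 561 ± 379 more detected genes in Q1 than in Q4 (SD, n = 5 preparations, higher in 5 of 5, exact two-sided permutation p = 0.063), and preparation 3 averaged 4437 of them per cell, where the other 4 averaged 5875 to 7148. All 278 cells had at least 4 of 8 germ cell markers, with a median of 8. At least 3 of 5 meiotic genes were detected in 252 cells. Sycp1 was detected in 278 cells, Sycp3 in 276, Hormad1 in 225, Dmc1 in 178 and Spo11 in 19. The summed mean FPKM of these 5 genes per preparation was 841 to 1017 in Q1 and 736 to 1928 in Q4, and their part in the members' values was not tested. At least 3 of 7 Sertoli cell markers were detected in 1 cell, and the Leydig, peritubular, endothelial and macrophage lists reached 3 markers in 0 cells. The Sertoli gene Amh, the Leydig genes Cyp11a1, Hsd3b1, Cyp17a1 and Insl3, and the macrophage gene C1qa were at 0 in every cell. The fifth Leydig list gene, Star, was detected in 55 cells (19.8%), with a highest FPKM of 84.3. The Sertoli genes Sox9 and Wt1 were detected in 21 and 17 cells, and the part of these cells in the members' values was not tested. The run number in the sample titles was read as the preparation, and n counts preparations, not cells, in every test.

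Lin28a was detected in 214 of 278 cells (77%), Upp1 in 132 (47.5%), Sox3 in 102 (36.7%) and Neurog3 in 28 (10.1%). The mean FPKM over all cells of a preparation ran from 34.6 to 54.3 for Lin28a and from 32.7 to 54.4 for Upp1, ranges that overlap. It ran from 2.78 to 5.86 for Neurog3 and from 1.44 to 3.78 for Sox3, which also overlap, while every preparation's mean FPKM for Lin28a or Upp1 lay above every one for Neurog3 or Sox3. The detected shares did not divide in that way, since Sox3 and Upp1 were found in 27% and 24.3% of the cells of preparation 3 and both in 38.5% of those of preparation 5. In detected cells the median FPKM was 19.1 for Neurog3, with a highest value of 105, against 4.56 for Sox3, with a highest value of 75.3. Upp1 had a median of 69.9 in its detected cells, above the 44.8 of Lin28a, which was detected in more cells.

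No member passed the test between the brightest and the dimmest quartile, and their values did not lie on 1 side. On the log2 scale, Upp1 (-1.89), Neurog3 (-0.47) and Sox3 (-0.25) had lower fitted means in Q1 than in Q4, and Lin28a (1.05) had a higher one. The test was limma on the 20 means of log2(FPKM + 1) per preparation and quartile, with the preparation as a block and p adjusted over all 10452 genes. Of these genes 8 passed between Q1 and Q4 (0.0765%), and 0 of the 4 members did. At an unadjusted p under 0.05, 1084 genes (10.4%) were higher in Q1 and 108 (1.03%) were lower. Lin28a was among the first, and Upp1 and Neurog3 were among the second. For Neurog3 this place depended on the setting. Its unadjusted limma p was 0.0469 here, 0.0546 with no filter, 0.0649 with unweighted means and 0.0171 with the log2 of mean FPKM. Pooled over preparations, its detected share exceeded the 10% of the filter in Q3 (10.8%) and Q4 (15%) but not in Q1 (8.11%) or Q2 (7.14%). The median difference over all tested genes was 0.17, so the lower values of Upp1 and Neurog3 went against the side on which most genes lay.

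**Figure D1:**
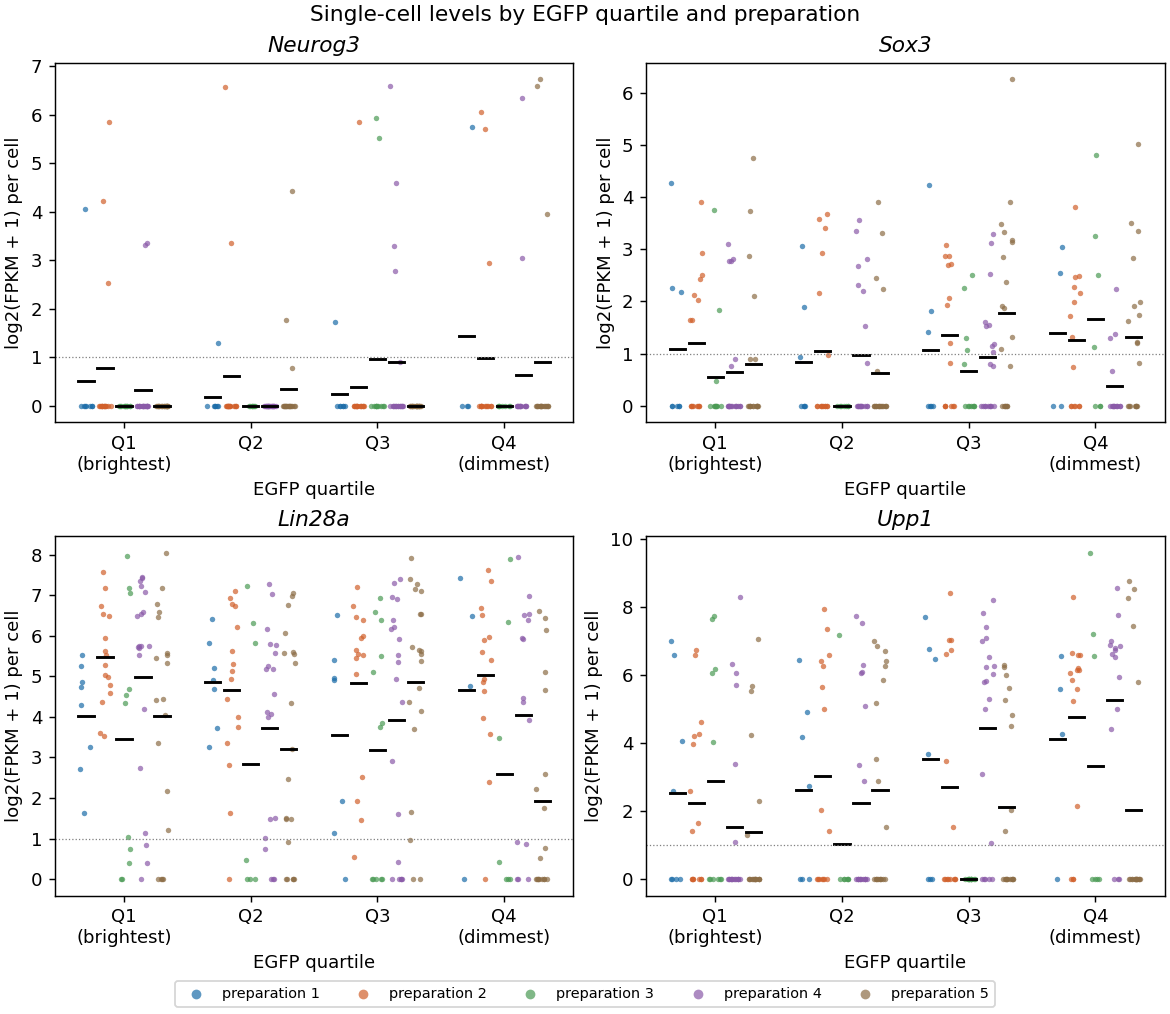
Each point is 1 cell, placed by EGFP quartile (x axis) and log2(FPKM + 1) (y axis) and coloured by preparation, with a black bar at each preparation's mean and a dotted line at an FPKM of 1. Most cells lie at 0 for Neurog3 and Sox3, while Lin28a and Upp1 split into cells at 0 and cells far above it.

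Neurog3 transcripts were found in 6 of 74 Q1 cells, 5 of 70 Q2 cells, 8 of 74 Q3 cells and 9 of 60 Q4 cells. The share in preparations 1 to 5 was 12.5%, 18.8%, 0%, 10% and 0% in Q1, and 25%, 20%, 0%, 13.3% and 15.8% in Q4. The quartiles overlapped, and in preparation 3 the gene was seen in Q3 alone, in 2 cells. The groups with 0 detected cells held 7 to 20 cells, which allows a share of up to 42.9% in the smallest and up to 15% in the largest, counting error only. Within preparations the share in Q1 minus that in Q4 was -6.57 percentage points on average (SD 7.11, n = 5, below 0 in 4 and equal in 1, exact two-sided permutation p = 0.125).

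In Neurog3-positive cells the level was also lower in the bright quartiles of these libraries. The median FPKM of the detected cells from Q1 to Q4 was 12.5, 9.27, 34.1 and 52.7, and the highest single values were 56.6 in Q1 and 105 in Q4. Only 3 preparations had a detected cell in both end quartiles, and there the log2 level in Q1 minus that in Q4 was -1.30 on average (SD 0.51, 3 of 3 below 0, exact permutation p = 0.25, the smallest that 3 preparations allow). The mean of log2(FPKM + 1) per preparation was 0.51, 0.79, 0, 0.33 and 0 in Q1 and 1.44, 0.98, 0, 0.63 and 0.91 in Q4. The fitted difference was -0.47 ± 0.22 (SE, 95% interval -0.93 to -0.01, unadjusted p = 0.0469, limma adjusted p = 0.427). Without preparation 5 this fitted difference of -0.47 became -0.28. A difference of the log2 of mean FPKM over all 5 preparations, which weighs the few high cells more, was -1.89 ± 0.72 (limma adjusted p = 0.512).

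Sox3 was detected in a larger share of the Q3 and Q4 cells than of the Q1 and Q2 cells, and its level in those cells did not follow. It was found in 21 of 74 Q1 cells, 18 of 70 Q2 cells, 36 of 74 Q3 cells and 27 of 60 Q4 cells. The share in preparations 1 to 5 was 37.5%, 50%, 18.2%, 20% and 21.1% in Q1, and 50%, 53.3%, 57.1%, 20% and 52.6% in Q4. In 4 preparations Q4 was above Q1, and in preparation 4 the shares were equal. The mean difference was -17.3 percentage points (SD 17.3, n = 5, exact two-sided permutation p = 0.125).

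In the cells with Sox3, the median FPKM from Q1 to Q4 was 5.85, 6.33, 3.98 and 3.70. Within preparations the log2 level was 0.59 higher in Q1 (SD 0.75, n = 5, above 0 in 4 of 5, exact permutation p = 0.125). Share and level thus lay in opposite directions, and with cells above 0 counted as detected the level difference was 0.09. The mean of log2(FPKM + 1) was 1.09, 1.20, 0.55, 0.66 and 0.80 in Q1 and 1.40, 1.26, 1.67, 0.37 and 1.33 in Q4, with overlap. The fitted difference was -0.25 ± 0.25 (SE, 95% interval -0.76 to 0.27, limma adjusted p = 0.756).

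Sox3 lies close to the depth of the libraries. With 1 exon and 1 transcript its FPKM could be turned into estimated fragments, which were within 0.2 of a whole number for 69 of 70 values between 1 and 5 fragments. Of the 119 cells above 0, 24 had 1 fragment, 14 had 2, 59 had 3 to 10 and 22 had more. In the median cell 1 fragment was worth 0.776 FPKM, and 8 of the 102 detected cells rested on 1 fragment. Counting only cells with at least 2 fragments, a rule chosen after seeing the data, gave a difference in share of -16.2 percentage points. At an FPKM of at least 5 it was -2.28, so the difference in share lay among cells with low Sox3 values.

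Lin28a was the most widely detected member, in 63 of 74 Q1 cells, 55 of 70 Q2 cells, 58 of 74 Q3 cells and 38 of 60 Q4 cells. The share in preparations 1 to 5 was 100%, 100%, 63.6%, 85% and 78.9% in Q1, and 75%, 93.3%, 42.9%, 66.7% and 42.1% in Q4. It was higher in Q1 in 5 of 5 preparations, by a mean of 21.5 percentage points (SD 10.9, exact two-sided permutation p = 0.063, the smallest that 5 preparations allow). Lin28a-positive cells also had more detected genes than the other cells of their preparation, by 607 ± 390 (SD, n = 5, 5 of 5), a number that was itself higher in Q1 (above). Averaged over the broader and the narrower cells of each preparation, compared separately, the difference was 24.3 percentage points (SD 17.9, above 0 in 5 of 5). At an FPKM of at least 5 it was 17.5.

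In cells with Lin28a the level did not follow the share. The median FPKM of detected cells from Q1 to Q4 was 44.8, 35.7, 47.2 and 58.8. The log2 level differed by -0.48 between Q1 and Q4 (SD 1.15, n = 5, below 0 in 3 of 5, exact permutation p = 0.438). The mean of log2(FPKM + 1) was 4.03, 5.48, 3.45, 4.98 and 4.03 in Q1 and 4.67, 5.03, 2.59, 4.05 and 1.94 in Q4, so Q1 was higher in 4 of 5 preparations. The fitted difference was 1.05 ± 0.41 (SE, 95% interval 0.20 to 1.90, unadjusted p = 0.0177, limma adjusted p = 0.316). It was 0.56 without preparation 5, in which Lin28a was found in 8 of 19 Q4 cells, and 0.46 as a difference of the log2 of mean FPKM. With the mean number of detected genes as a covariate it was 0.73 ± 0.65 (SE, unadjusted p = 0.275, limma adjusted p = 0.948).

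Upp1 was detected in 30 of 74 Q1 cells, 32 of 70 Q2 cells, 35 of 74 Q3 cells and 35 of 60 Q4 cells. The share in preparations 1 to 5 was 50%, 56.3%, 45.5%, 30% and 31.6% in Q1, and 75%, 80%, 42.9%, 80% and 26.3% in Q4. Preparations 1, 2 and 4 had the higher share in Q4, and preparations 3 and 5 had nearly equal shares. The mean difference was -18.2 percentage points (SD 22.8, n = 5, below 0 in 3 of 5, exact permutation p = 0.25). Without preparation 4 it was -10.2, with 2 preparations above 0 and 2 below, and within cells of like breadth it was -10.7.

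The level in Upp1-positive cells was on the dim side in every preparation. Its median FPKM from Q1 to Q4 was 34.5, 66.3, 74.1 and 94.6, and the highest cell, at 768, was in Q4. Within preparations the log2 level differed by -1.86 (SD 1.14, n = 5, below 0 in 5 of 5, exact two-sided permutation p = 0.063, the smallest possible). With detection set at an FPKM of at least 5, the level difference was -1.21 (below 0 in 5 of 5). The share difference was then -23.7 percentage points (below 0 in 4 of 5), so the split between share and level depended on the threshold. In preparation 5, where fewer Q4 cells than Q1 cells had Upp1 by share, the 5 positive Q4 cells had a median FPKM of 303 against 31.7 in the 6 positive Q1 cells.

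Share and level together gave Upp1 the smallest p of the 4. The mean of log2(FPKM + 1) was 2.53, 2.25, 2.87, 1.54 and 1.37 in Q1 and 4.10, 4.77, 3.34, 5.27 and 2.04 in Q4. Q1 was lower in 5 of 5 preparations, although the 2 ranges overlapped across preparations. The fitted difference was -1.89 ± 0.56 (SE, 95% interval -3.05 to -0.72, unadjusted p = 0.00272, limma adjusted p = 0.183), rank 155 of 10452 by p. Preparation 4 had the widest gap, and without it the difference was -1.24 ± 0.56 (limma adjusted p = 0.497). With the mean number of detected genes as a covariate it was -3.45 ± 0.81 (limma adjusted p = 0.690), and no gene passed in that fit.

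**Figure D2:**
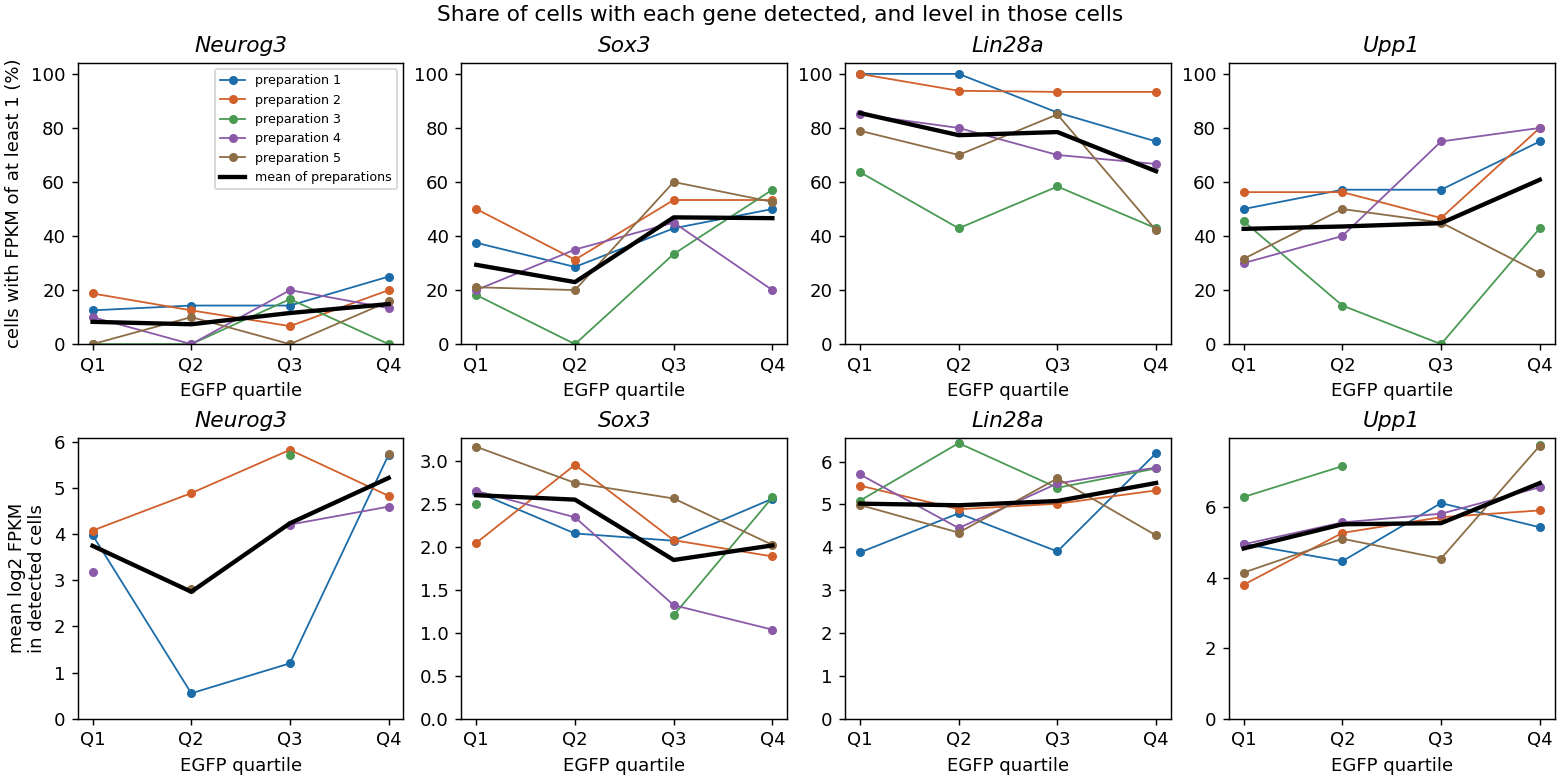
The upper row plots the percent of cells with an FPKM of at least 1 and the lower row the mean log2 FPKM of those cells, against EGFP quartile, with 1 coloured line per preparation and the mean of the preparations with a detected cell in black. The Lin28a share lies higher in Q1 than in Q4 in all 5 preparations, and the Upp1 level lies lower in Q1 than in Q4 in all 5.

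Across the 4 quartiles in order, no member passed either. The slope of mean log2(FPKM + 1) per quartile step toward the bright end was -0.58 ± 0.17 (SE) for Upp1 (limma adjusted p = 0.167) and -0.16 ± 0.07 for Neurog3 (limma adjusted p = 0.354). It was -0.12 ± 0.08 for Sox3 (limma adjusted p = 0.571) and 0.26 ± 0.13 for Lin28a (limma adjusted p = 0.452). Of all genes 8 passed this trend test (0.0765%). Between neighbouring quartiles 0 members and 0 genes (0%) passed, in each of the 3 comparisons.

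The steps between neighbouring quartiles were compared within each member. For Upp1, Q3 minus Q4 was -1.16 ± 0.56 (SE, unadjusted limma p = 0.0515), Q2 minus Q3 was -0.28 ± 0.54 and Q1 minus Q2 was -0.45 ± 0.54. Without preparation 3 the widest Upp1 step was Q1 minus Q2, at -0.83, and Q3 minus Q4 was -0.76. For Sox3, Q2 minus Q3 was -0.46 ± 0.24, and -0.19 without preparation 5. Lin28a had Q1 above Q2 by 0.74 ± 0.39 and Q3 above Q4 by 0.77 ± 0.41, with Q2 minus Q3 at -0.46 ± 0.39. Neurog3 steps were between -0.27 and 0.06. No 2 neighbouring quartiles could be told apart for any member at the adjusted threshold.

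**Figure D3:**
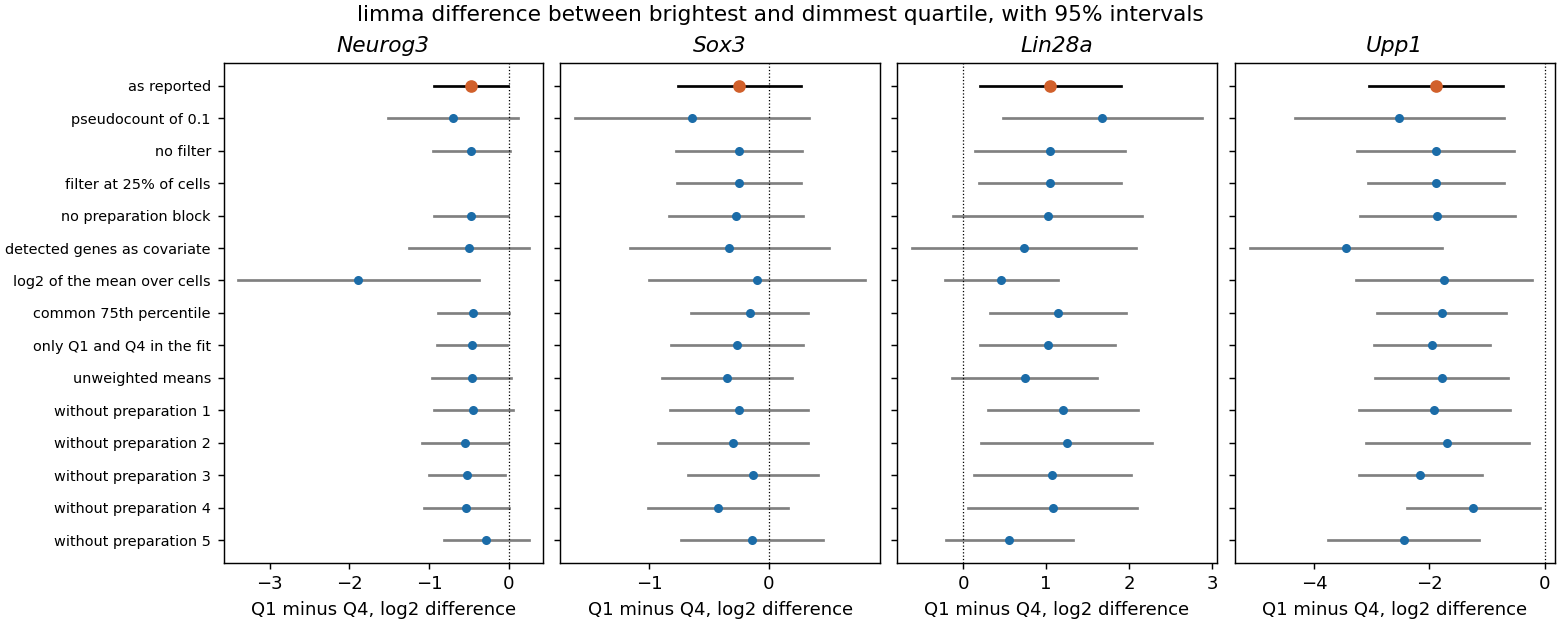
For each gene, points give the limma difference between Q1 and Q4 in log2 units (x axis) and lines its 95% interval, for the values as reported (orange point) and each alternative setting (blue points, y axis). Every point of Upp1, Neurog3 and Sox3 lies below 0 and every point of Lin28a above 0, and no point had an adjusted p under 0.05.

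Counted per cell, the number of members detected was slightly lower in bright cells. From Q1 to Q4 the mean was 1.66 ± 0.44, 1.51 ± 0.57, 1.82 ± 0.42 and 1.86 ± 0.49 (SD over 5 preparations). The quartile ranges overlapped, but within preparations Q1 was below Q4 in 5 of 5, with a mean difference of -0.21 (SD 0.11, exact two-sided permutation p = 0.063, the smallest possible). All 4 members were detected together in 10 cells, with 4 in each of Q3 and Q4, 2 in Q2 and 0 in Q1. A count of 0 of 74 Q1 cells, pooled over preparations, allows a share of up to 4.05%, counting error only, and the quartiles were not tested against each other. None was detected in 39 cells, which were spread over the quartiles as 11, 11, 7 and 10.

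The most frequent patterns were Lin28a alone (58 cells), Lin28a with Upp1 (57 cells) and Lin28a with Upp1 and Sox3 (43 cells). Cells with Lin28a alone made up 27%, 25.7%, 20.3% and 8.33% of the quartiles from Q1 to Q4. Cells with Upp1, Sox3 or Neurog3 and without Lin28a were few. Sox3 alone was seen in 8 cells, Upp1 alone in 8 and Neurog3 alone in 1, and 0 of these 17 cells were in Q1. All 11 Q1 cells without Lin28a lacked the other 3 members as well, while 10 of the 22 Q4 cells without Lin28a did. Q1 held 74 of the 278 cells, and all its cells in preparations 1 and 2 had Lin28a, so few Q1 cells could show these patterns. These counts pool cells over preparations, and the quartiles were not tested against each other.

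The 3 more widely detected members shared cells more often than their single frequencies gave. Lin28a and Upp1 were detected together in 116 cells, against 106 from the product of the shares within each preparation. Sox3 and Upp1 shared 60 cells against 49.6, and Sox3 and Lin28a shared 87 against 80.5. As a share of cells the excess was 3.86 ± 2.56 percentage points for Lin28a with Upp1, 3.48 ± 2.05 for Sox3 with Upp1 and 2.56 ± 1.35 for Sox3 with Lin28a (SD, n = 5 preparations). Each of the 3 was above 0 in 5 of 5 preparations (exact two-sided permutation p = 0.063, the smallest possible, adjusted over 30 pairs p = 0.268). Lin28a was detected in 24 of 26 cells of preparation 1 and 59 of 62 of preparation 2. The signs of its 2 pairs there thus rested on few cells without it. Upp1 was found in 54.2% of Lin28a-positive cells and 25% of the others, and in 58.8% of Sox3-positive cells and 40.9% of the others.

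Averaged over the quartiles of each preparation, these excesses were 4.11, 3.18 and 2.87 percentage points, in the same order. Averaged over the broader and narrower cells of each preparation, they were 3.34, 3.50 and 2.51. Single quartiles were not compared. Cells with Upp1 had 333 ± 342 more detected genes than other cells of their preparation (SD, n = 5, 5 of 5), and cells with Sox3 58 ± 185. Across the 278 cells, with preparation means removed, Pearson's r of log2(FPKM + 1) was 0.18 for Lin28a with Upp1, 0.20 for Sox3 with Upp1 and 0.14 for Sox3 with Lin28a, a description of cells that share chips and depth.

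Neurog3 showed less. Of its 28 cells 24 also had Lin28a (85.7%, against 76% of other cells), 19 had Upp1 (67.9% against 45.2%) and 14 had Sox3 (50% against 35.2%). Within preparations the excess was 0.73 ± 1.20 percentage points with Lin28a, 1.38 ± 2.18 with Upp1 and 0.95 ± 1.89 with Sox3 (SD, n = 5), each above 0 in 3 of 5 (exact permutation p = 0.25, 0.25 and 0.438). With 2 to 9 Neurog3-positive cells per preparation, these excesses were smaller than their spread. The pair with Sox3 turned to -0.14 when a cell needed an FPKM of at least 5.

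**Figure D4:**
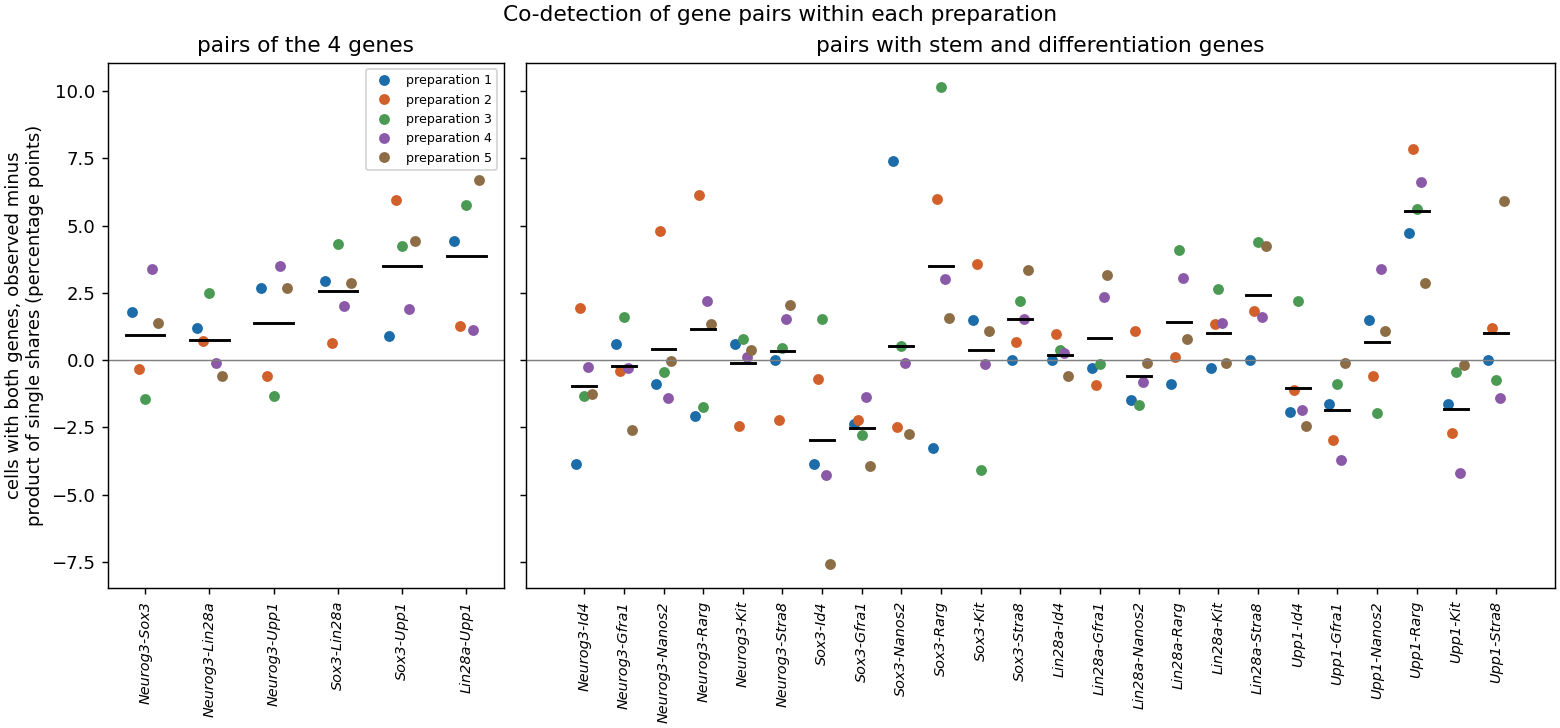
The y axis gives, in percentage points of cells, the observed share with both genes minus the product of the single shares, with 1 coloured point per preparation and a black bar at their mean, for the 6 pairs of the 4 genes (left) and their 24 pairs with stem and differentiation genes (right). All 5 points lie above 0 for Sox3-Lin28a, Sox3-Upp1, Lin28a-Upp1 and Upp1-Rarg, and all 5 lie below 0 for Sox3-Gfra1, Upp1-Gfra1 and Upp1-Kit.

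Set against markers of the stages around the progenitor, Upp1 stood with Rarg. Rarg encodes a retinoic acid receptor found in progenitor spermatogonia, and it was detected in 81 cells. In cells with Upp1, Rarg was found in 46.7%, 48.6%, 55.6%, 41.5% and 26.7% in preparations 1 to 5, against 27.3%, 16%, 25%, 14.7% and 14.6% of cells without Upp1. The 2 groups did not overlap except that preparation 5's positive cells lay below preparation 1's negative cells. The excess over the product was 5.54 ± 1.90 percentage points (SD, n = 5, above 0 in 5 of 5, exact permutation p = 0.063, adjusted over 30 pairs p = 0.268), and 3.89 within quartiles. Sox3 with Rarg had 3.49 ± 5.00 (4 of 5), Lin28a with Rarg 1.43 ± 2.07 (4 of 5) and Neurog3 with Rarg 1.17 ± 3.35 (3 of 5).

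The pairs with Gfra1, the GDNF receptor gene of stem cells, lay on the other side for Sox3 and Upp1. Gfra1 was detected in 64.7% of Sox3-positive cells and 74.4% of the others, and in 68.2% of Upp1-positive cells and 73.3% of the others. The deficits were -2.54 ± 0.94 and -1.86 ± 1.48 percentage points (SD, n = 5, each below 0 in 5 of 5, exact permutation p = 0.063, adjusted over 30 pairs p = 0.268). Gfra1 was detected in 25 of the 26 cells of preparation 1, so both signs there rested on very few cells. In preparation 5 it was found in 60% of Upp1-positive cells and 60.4% of the others, which is nearly equal. Within quartiles the deficits were -1.16 (3 of 5 below 0) and -1.02 (4 of 5 below 0). With every cell above 0 counted as detected, Sox3 with Gfra1 was at -1.34 (4 of 5 below 0) and Upp1 with Gfra1 at -0.47 (3 of 5 below 0). At an FPKM of at least 5 the value for Sox3 was -1.48 (3 of 5 below 0) and that for Upp1 -3.42 (5 of 5). Across cells, r between log2 levels was -0.25 for Upp1 with Gfra1 and -0.14 for Sox3 with Gfra1.

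Kit, which encodes the receptor of differentiating spermatogonia, also had pair values below 0 with Upp1. The excess of Upp1 with Kit was -1.83 ± 1.66 percentage points (SD, n = 5, below 0 in 5 of 5, exact permutation p = 0.063, adjusted over 30 pairs p = 0.268), and -2.30 within quartiles. At an FPKM of at least 5 it was -1.08 (3 of 5 below 0). Kit was detected in 25 of the 26 cells of preparation 1, so the sign there rested on very few cells. In preparation 5 the value was only -0.20. With Stra8, a gene induced by retinoic acid, Lin28a had an excess of 2.41 ± 1.87 and Sox3 of 1.55 ± 1.31, above 0 in 4 of 5 preparations and 0 in preparation 1. Id4 was found in 33.3% of Sox3-positive cells and 46.6% of the others (excess -2.97 ± 3.51, below 0 in 4 of 5). The remaining pairs of a member with Id4, Nanos2, Gfra1, Kit or Stra8 had means between -1.04 and 0.99.

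The genes of a list drawn up for other progenitor genes did not share a side. Whether each of them marks progenitors was not tested here. Of 10 genes in that list 9 were tested, 0 passed, 4 lay above 0 and the median difference between Q1 and Q4 was -0.05, against 0.17 for all genes. Pou5f1, the pluripotency factor OCT4, differed by 0.76 ± 0.26 (SE, limma adjusted p = 0.263), and its mean FPKM over 5 preparations was 7.54 in Q1 and 2.22 in Q4. Foxc2, a forkhead factor gene, differed by 0.83 ± 0.31 (SE, limma adjusted p = 0.285), and Nanos3, which encodes an RNA-binding germ cell protein, by 0.68 ± 0.43 (SE, limma adjusted p = 0.579). Rarg differed by -0.39 ± 0.31 (SE, limma adjusted p = 0.666).

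The stem cell list lay opposite to Upp1. All 13 tested of 18 genes were above 0, with a median of 1.05, and 0 passed between Q1 and Q4. The 13 include Id4 (1.61 ± 0.41, SE), whose reporter defines the quartiles. The list was also chosen with earlier results of these data known, so its shared side is not an independent result. Tcl1, an AKT co-activator gene, differed by 2.4 ± 0.49 (SE, limma adjusted p = 0.0515), Gfra1 by 1.93 ± 0.43 (limma adjusted p = 0.0858) and Dusp6, an ERK phosphatase gene, by 1.82 ± 0.41 (limma adjusted p = 0.0917). Tcl1 passed over the quartile trend (limma adjusted p = 0.0384), the only gene of the lists to do so. Of 9 tested differentiation genes 0 passed, 4 were above 0 and the median was -0.03. The smallest p there was that of Ccnd2, a D-type cyclin, at 1.10 ± 0.45, followed by the DNA methyltransferase gene Dnmt3b at -0.50 ± 0.34 and Stra8 at -0.48 ± 0.47 (SE).

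The partners of the members were mostly present. For the bHLH factor Neurog3, the E protein genes Tcf3, Tcf4 and Tcf12 were detected in 78.1%, 66.2% and 76.6% of cells, while its relatives Neurog1, Neurog2 and Neurod1 were at 0 in every cell. Id4 (1.61 ± 0.41, SE), Tcf12 (0.64 ± 0.39) and Id3 (0.38 ± 0.26) had the smallest p of that list. All 5 tested genes lay above 0, with a median of 0.45, and 0 of 5 passed. The 5 include Id4, whose reporter defines the quartiles, and the list was chosen with earlier results of these data known.

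Among SOX genes, Sox3 was alone in its group. The other SOXB genes were near absent, with Sox2 detected in 5 cells and Sox1, Sox14 and Sox21 in 0. Sox13 (1.21 ± 0.32, SE), Sox11 (0.94 ± 0.38) and Sox4 (0.24 ± 0.26) of other SOX groups had values above 0, and 0 of 4 tested SOX genes passed (median 0.59).

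Of the let-7 pathway 11 of 13 genes were tested, 8 lay above 0, the median was 0.10 and 0 passed. Lin28b, the paralog of Lin28a, was detected in 134 cells and differed by -0.23 ± 0.34 (SE), and Trim71, itself a let-7 target gene, was detected in all 278 cells. The smallest p were those of Dicer1, the microRNA processing enzyme (0.59 ± 0.34, SE), and of Igf2bp1 (0.43 ± 0.31) and Igf2bp3 (0.53 ± 0.41), which encode RNA-binding proteins.

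Of 16 genes of pyrimidine salvage and synthesis 12 were tested, 0 passed, 7 lay above 0 and the median was 0.16, near that of all genes. Upp2, the paralog of Upp1, was detected in 2 cells. The smallest p were those of Cda, cytidine deaminase (0.64 ± 0.34, SE), Tk1, thymidine kinase (0.63 ± 0.35), and Cmpk1, a nucleoside monophosphate kinase (0.48 ± 0.35). The Upp1 difference of -1.89 lay outside the range of these 12 genes, which was -0.20 to 0.64.

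The genes whose levels across the 278 cells were most like each member's were found by Pearson's r after removing preparation means, as a description of cells that share chips and depth. For Upp1 they were Nanos3 (r = 0.34), Igfbp6 (0.34), Aff3 (0.33), Snx33 (0.33) and Rragd (0.32). Nanos3 and Upp1 were detected together in 123 cells, and r was above 0 in 5 of 5 preparations (0.09 to 0.46). For Lin28a they were Rpusd1 (0.27), Bnc2 (0.27), Ninj1 (0.25), Llgl1 (0.25) and Lsm10 (0.25), and for Sox3 Dnlz (0.25), Taf9b (0.24), Ano10 (0.24), Cdk14 (0.23) and Dhx57 (0.23). For Neurog3 they were Syne1 (0.30), Kcnt1 (0.28), Pecam1 (0.26), Ppp4r1l-ps (0.25) and Clec10a (0.25), on 7 to 14 shared cells each. Pecam1 is also an endothelial marker. At most 2 of the 4 endothelial markers were detected in any cell, and their summed mean FPKM per preparation was 1.10 to 4.22 in Q1 and 0.319 to 23.8 in Q4; their part in the Neurog3 values was not tested.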

How the data were processed

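Single-cell RNA-seq of 278 cells was used as deposited by the authors, as 1 FPKM value per gene and cell; the unit was read from the quantifier and the values. The submitters' processing notes list FastQC, TopHat, Cufflinks and Picard, and mm10 (GRCm38) as the genome; software versions and gene models are not stated in the labels. The run number in the titles was taken as the preparation. A passage of the protocols names the dim quartile Q2, and the design text's Q4 was used. A listed 0 need not mean absence, since Gapdh was at 0 in 1 cell.

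Means of log2(FPKM + 1) per preparation and quartile, weighted by cells, were fitted with limma 3.58.1 (R 4.3.3) for 10452 genes, with preparation as a block. Same-preparation quartiles deviated together (30 pairs, lowest r 0.08, median 0.19, against -0.07 for 120 other pairs). Values per preparation were tested by exact two-sided sign-flip permutation, which cannot go below 0.063, so none could pass 0.05. Whether preparations came from separate litters is not stated. FPKM steps gave the depth, from 2109 genes; if the values were rescaled it is an effective depth. The limma script was tested on simulated data. Members and lists were chosen with earlier results of these data known. Named genes were the 4 members, their co-detection partners, genes of a list that passed or otherwise its 3 smallest p, and the 5 genes most like each member. Proteins and the Sox3 promoter were not used here.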

Additional observations from a re-analysis of the deposited data

Results flagged for a closer look

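Of 36 sets of 5 preparations examined (each member's mean level and detected share in each quartile, and its difference between Q1 and Q4), 1 held a preparation far from the other 4. The share of Q4 cells with Sox3 was 20% in preparation 4, against 50% to 57.1% in the other 4. By chance about 1 in 20 such sets holds a value this far out. Without preparation 4 the Sox3 share differed by -21.6 percentage points between Q1 and Q4.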

How the results depend on the processing

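The count of genes passing between Q1 and Q4 was 8. It was 0 with no filter, with no preparation block, with detected genes as a covariate, with the log2 of mean FPKM, with Q1 and Q4 alone in the fit and with unweighted means. It was 44 with cells scaled to a common 75th percentile, and 0 to 11 with 1 preparation left out. Over the trend the count of 8 became 20 with a pseudocount of 0.1, 34 with a filter at 25% of cells (which drops Neurog3) and 73 with the common 75th percentile. It became 0 with no filter, no block, the covariate, the log2 of the mean and unweighted means, and 0 to 19 with 1 preparation left out. Between neighbouring quartiles 1 gene passed with no filter.

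No member passed in any of the 14 alternatives of the comparison of Q1 with Q4 or the 13 of the trend, and none turned its sign there. Without the preparation as a block, the paired structure is ignored and the differences were -1.86 (Upp1), 1.02 (Lin28a), -0.47 (Neurog3) and -0.27 (Sox3), with slopes of -0.56, 0.26, -0.16 and -0.13. Steps between neighbours turned sign for Neurog3 Q1 minus Q2 (-0.0065 with the log2 of the mean; -0.050 to 0.22 with 1 preparation left out), Sox3 Q3 minus Q4 (-0.051 unweighted; -0.013 to 0.29), Lin28a Q3 minus Q4 (-0.13 to 1.09) and Upp1 Q2 minus Q3 (0.40 with the log2 of the mean; -0.59 to 0.45). The turns came without preparation 5 for Lin28a and without preparation 4 for the other 3.

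Co-detection of Neurog3 with Sox3 was -0.14 at an FPKM of at least 5. Of the 24 pairs with a partner gene 12 turned sign somewhere; the cause was not tested. At an FPKM of at least 5 these were Neurog3-Gfra1 (0.26), Neurog3-Nanos2 (-0.58), Sox3-Kit (-2.71) and Lin28a-Gfra1 (-0.017). With cells above 0 it was Neurog3-Kit (0.48). Within quartiles they were Neurog3-Gfra1 (0.16), Neurog3-Kit (0.091), Lin28a-Id4 (-0.30), Lin28a-Gfra1 (-0.24) and Upp1-Id4 (0.32). Within cells of like breadth they were Neurog3-Kit (0.057), Lin28a-Gfra1 (-0.023) and Lin28a-Kit (-0.40). With Sox3 at 2 or more estimated fragments, chosen after seeing the data, it was Sox3-Kit (-0.52). With 1 preparation left out the ranges that crossed 0 were Neurog3-Gfra1 (-0.68 to 0.37), Neurog3-Nanos2 (-0.70 to 0.86), Neurog3-Rarg (-0.072 to 1.98), Neurog3-Kit (-0.33 to 0.48), Neurog3-Stra8 (-0.072 to 1.00), Sox3-Nanos2 (-1.21 to 1.33), Sox3-Kit (-0.42 to 1.5) and Upp1-Stra8 (-0.24 to 1.6). Low values limit Sox3, the small number of positive cells limits Neurog3, and 5 preparations limit every p.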
